A study of Mus musculus with 24 samples.

Results

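The transcripts described here encode repressors of the circadian clock and the PAR bZIP transcription factors that the clock drives. They are the PAR bZIP genes Dbp, Tef and Hlf, the nuclear receptor genes Nr1d1 and Nr1d2, and Ciart, Per1, Per2, Per3 and Cry2. Members were the probe sets that the platform annotation gives exactly 1 of these symbols, and a gene with several was read from its brightest probe set, by the mean of the 24 arrays. This gave 10 genes on 11 probe sets, of 19937 genes and 34760 probe sets in the table. Only Ciart had a further probe set, which is given beside it.

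Whole hypothalamus was taken from untreated male mice in 4 groups of n = 6, and each array held the RNA of a separate mouse. The groups were BPH/2J at 26 weeks of age, BPN/3J at 26 weeks, BPH/2J at 6 weeks and BPN/3J at 6 weeks. Mice of the inbred strain BPH/2J are hypertensive, and the inbred strain BPN/3J serves as their normotensive control. The submitters' design text writes the substrain of the control as BPN/2J in 1 place, and the name on the samples was kept. Tissue was collected when blood pressure was at its daily highest. The sources used here give neither the clock hour nor the light schedule. Each mouse was sampled at a single time, so a change in the level of a rhythm and a change in its timing cannot be told apart. In whole tissue, fewer cells of a type and less RNA per cell cannot be told apart either.

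In the mammalian clock, the proteins CLOCK and BMAL1 (gene Arntl) bind E-box sequences and switch on their own repressors, the PER and CRY proteins, which return to the nucleus and block them. A further loop runs through NR1D1 and NR1D2, also called REV-ERB alpha and beta, which compete with ROR proteins and hold down Arntl. DBP, TEF and HLF carry the rhythm onward by binding D-box sequences, and CIART, also called CHRONO, is a repressor that acts on the CLOCK-BMAL1 complex. The suprachiasmatic nucleus of the hypothalamus is the pacemaker of these rhythms in mammals, and the same genes cycle in other brain regions.

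The promoters show which of these elements lie next to the start sites. RefSeq windows of assembly GRCm38.p6, 250 bases before to 50 bases after a start site, were found for 9 of the 10 genes, in 11 windows of 300 bases. The E-box CACGTG was in the windows of 3 genes, namely Ciart, Tef and Per1, and in 7.15% of 32851 windows of all genes. Ciart held it 3 times, at positions -116, -58 and -44 from the start, while 0.594% of all windows held it at least 2 times. The D-box, searched as TTATGTAA, TTACATAA and TTACGTAA, was found in Per3 only, at -205 and -158, against 1.06% of all windows with at least 1 and 0.0244% with at least 2. AGGTCA, the core of the element bound by NR1D and ROR proteins, was in Nr1d2 at -77 and in Per1 at -137, against 16.3% of all windows, and the cAMP element TGACGTCA was in Hlf at -9, against 1.79%. Both strands were searched and the motifs do not overlap. A match is only a string of letters, and a window without a match says nothing of sites elsewhere in the gene. Shown 5′ to 3′ with these motifs in capitals are Dbp, Ciart and Cry2, the 3 members that were higher in 26-week BPH/2J, and Per3, which holds the D-boxes. The windows of Dbp and Cry2 hold none of the motifs searched. The windows are Dbp, chr7:45704997-45705296, plus strand; Ciart, chr3:95882179-95882478, minus strand; Cry2, chr2:92434020-92434319, minus strand; and Per3, chr4:151044616-151044915, minus strand.
Dbp: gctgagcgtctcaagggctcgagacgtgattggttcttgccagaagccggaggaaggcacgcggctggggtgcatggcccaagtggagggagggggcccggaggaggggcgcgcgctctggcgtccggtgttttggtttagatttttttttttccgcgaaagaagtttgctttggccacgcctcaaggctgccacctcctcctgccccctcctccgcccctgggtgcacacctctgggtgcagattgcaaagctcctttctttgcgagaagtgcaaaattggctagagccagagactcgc
Ciart: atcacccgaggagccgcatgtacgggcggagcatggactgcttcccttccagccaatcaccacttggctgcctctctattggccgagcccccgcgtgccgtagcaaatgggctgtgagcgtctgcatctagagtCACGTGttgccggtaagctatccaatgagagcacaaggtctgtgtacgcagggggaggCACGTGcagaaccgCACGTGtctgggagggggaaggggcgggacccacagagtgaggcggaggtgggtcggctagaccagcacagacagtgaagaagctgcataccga
Cry2: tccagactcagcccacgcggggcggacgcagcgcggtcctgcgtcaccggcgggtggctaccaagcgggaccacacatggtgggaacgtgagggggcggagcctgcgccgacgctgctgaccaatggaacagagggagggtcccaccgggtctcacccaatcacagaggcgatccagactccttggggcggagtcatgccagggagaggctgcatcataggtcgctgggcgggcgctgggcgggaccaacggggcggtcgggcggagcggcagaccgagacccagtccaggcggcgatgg
Per3: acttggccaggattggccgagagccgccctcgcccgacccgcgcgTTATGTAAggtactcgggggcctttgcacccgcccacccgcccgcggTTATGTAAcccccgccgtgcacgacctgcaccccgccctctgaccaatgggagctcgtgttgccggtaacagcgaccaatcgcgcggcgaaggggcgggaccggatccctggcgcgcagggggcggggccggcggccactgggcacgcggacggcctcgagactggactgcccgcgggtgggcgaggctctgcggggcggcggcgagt

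All members were measured well above the dim end of the arrays. Values are log2 values made with RMA, a method that corrects background, equalises the distributions of arrays and combines the probes of each probe set. A difference of 1 is thus 2-fold relative to the rest of the array. The lowest member value on any array lay 1.75 above that array's median of unnamed probe sets, for Per2. Levels are not compared between genes, because each probe set has its own brightness. The plot of member values by array shows that the groups are separated by fractions of a log2 unit and that Tef and Nr1d2 hardly vary.

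**Figure D1:**
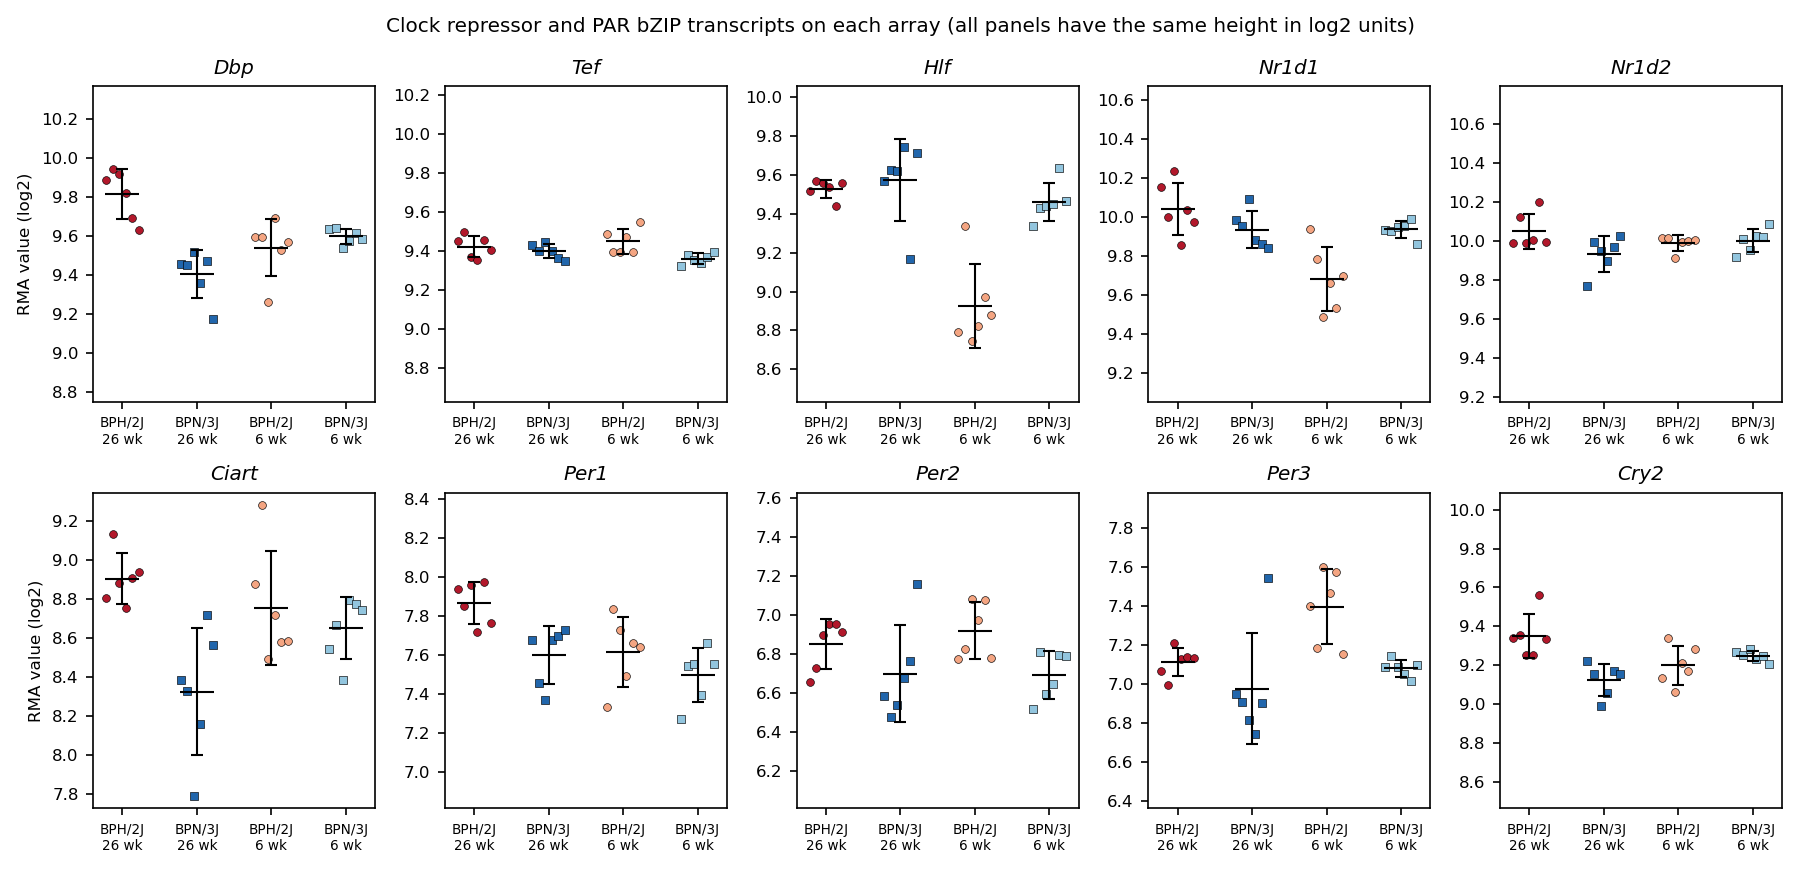
RMA values (log2) of the 10 transcripts on each of 24 arrays, by group; points are mice, and bars are the group mean with its SD (n = 6). All panels have the same height. Dbp, Ciart and Cry2 are higher in 26-week BPH/2J than in 26-week BPN/3J with no overlap, and Hlf is lowest in 6-week BPH/2J.

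Dbp, the PAR bZIP gene with the strongest rhythm in most tissues, separated the strains at 26 weeks. It averaged 9.81 ± 0.13 in 26-week BPH/2J (lowest 9.63, median 9.85, highest 9.94) and 9.40 ± 0.12 in 26-week BPN/3J (9.17, 9.45 and 9.51; SD, n = 6 each). Every BPH/2J mouse of this age was above every BPN/3J mouse. At 6 weeks it averaged 9.54 ± 0.15 in BPH/2J (9.26, 9.58 and 9.69) and 9.60 ± 0.04 in BPN/3J (9.54, 9.60 and 9.64), and the ranges overlapped. The order of the group means, from 26-week BPH/2J through 6-week BPN/3J and 6-week BPH/2J to 26-week BPN/3J, had overlapping ranges between all neighbours.

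Tef, a PAR bZIP factor with a shallow rhythm in brain, was the member that varied least. Its group means spanned 0.09 log2 units, with 9.42 ± 0.06 in 26-week BPH/2J (9.35, 9.43 and 9.50), 9.40 ± 0.04 in 26-week BPN/3J (9.35, 9.40 and 9.44), 9.45 ± 0.07 in 6-week BPH/2J (9.39, 9.43 and 9.55) and 9.36 ± 0.03 in 6-week BPN/3J (9.32, 9.36 and 9.40). All neighbouring groups overlapped.

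Hlf, the remaining PAR bZIP gene, was low in young BPH/2J. It averaged 9.53 ± 0.05 in 26-week BPH/2J (9.44, 9.54 and 9.56) and 9.57 ± 0.21 in 26-week BPN/3J (9.17, 9.62 and 9.74), with overlapping ranges. It averaged 8.92 ± 0.22 in 6-week BPH/2J (8.75, 8.85 and 9.33) and 9.46 ± 0.10 in 6-week BPN/3J (9.33, 9.44 and 9.63). In 6-week BPH/2J 5 mice lay between 8.75 and 8.97 and replicate 2, at 9.33, reached the lowest 6-week BPN/3J mouse without passing it. Hlf was the only member in which 2 neighbouring groups of the order, 6-week BPN/3J and 6-week BPH/2J, did not overlap.

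Nr1d1 and Nr1d2 encode the nuclear receptors that repress Arntl. Nr1d1 averaged 10.04 ± 0.13 in 26-week BPH/2J (9.86, 10.02 and 10.23), 9.93 ± 0.09 in 26-week BPN/3J (9.84, 9.92 and 10.09), 9.68 ± 0.16 in 6-week BPH/2J (9.49, 9.68 and 9.94) and 9.94 ± 0.04 in 6-week BPN/3J (9.86, 9.94 and 9.99). Young BPH/2J was the low group, with 1 mouse at 9.94 inside the range of the others. Nr1d2 averaged 10.05 ± 0.09 in 26-week BPH/2J (9.99, 9.999 and 10.20), 9.94 ± 0.09 in 26-week BPN/3J (9.77, 9.96 and 10.03), 9.99 ± 0.04 in 6-week BPH/2J (9.91, 10.0035 and 10.02) and 10.003 ± 0.06 in 6-week BPN/3J (9.92, 10.02 and 10.09). Its group means spanned 0.11 log2 units and all neighbours overlapped.

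Ciart showed the widest spread. It averaged 8.90 ± 0.13 in 26-week BPH/2J (8.76, 8.89 and 9.14) and 8.32 ± 0.33 in 26-week BPN/3J (7.79, 8.36 and 8.72), and the strains did not overlap. At 6 weeks it averaged 8.76 ± 0.29 in BPH/2J (8.49, 8.65 and 9.28) and 8.65 ± 0.16 in BPN/3J (8.38, 8.71 and 8.79), with overlap. Its other probe set averaged 8.49 ± 0.12 in 26-week BPH/2J and 7.93 ± 0.21 in 26-week BPN/3J, again without overlap (8.33 to 8.68 against 7.60 to 8.12). In young mice that probe set averaged 8.02 ± 0.34 in BPH/2J and 8.13 ± 0.10 in BPN/3J, so the probe sets disagree about 6-week BPH/2J: it was the higher strain by the main probe set and the lower by the other, with overlap in each.

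The Per genes encode the period proteins of the repressor complex. Per1 averaged 7.87 ± 0.11 in 26-week BPH/2J (7.72, 7.90 and 7.97), 7.60 ± 0.15 in 26-week BPN/3J (7.37, 7.68 and 7.73), 7.62 ± 0.18 in 6-week BPH/2J (7.33, 7.65 and 7.84) and 7.50 ± 0.14 in 6-week BPN/3J (7.27, 7.55 and 7.66). The 26-week strains overlapped by only 0.01 log2 units. Per2 averaged 6.85 ± 0.13 in 26-week BPH/2J (6.65, 6.91 and 6.96), 6.70 ± 0.25 in 26-week BPN/3J (6.48, 6.63 and 7.16), 6.92 ± 0.15 in 6-week BPH/2J (6.77, 6.90 and 7.08) and 6.69 ± 0.12 in 6-week BPN/3J (6.52, 6.72 and 6.81). Neighbouring groups overlapped throughout, and 1 mouse of 26-week BPN/3J, at 7.16, was the highest of all. Per3 averaged 7.11 ± 0.07 in 26-week BPH/2J (6.998, 7.13 and 7.21), 6.98 ± 0.29 in 26-week BPN/3J (6.74, 6.91 and 7.54), 7.40 ± 0.19 in 6-week BPH/2J (7.15, 7.44 and 7.60) and 7.08 ± 0.04 in 6-week BPN/3J (7.02, 7.09 and 7.15). At 6 weeks the Per3 ranges of the strains met without overlapping, and the same 26-week BPN/3J mouse that was high in Per2, replicate 6, was high in Per3.

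Cry2, a cryptochrome that represses CLOCK-BMAL1 with the PER proteins, followed the group order of Dbp. It averaged 9.35 ± 0.11 in 26-week BPH/2J (9.25, 9.34 and 9.56), 9.13 ± 0.08 in 26-week BPN/3J (8.99, 9.15 and 9.22), 9.20 ± 0.10 in 6-week BPH/2J (9.06, 9.19 and 9.34) and 9.25 ± 0.03 in 6-week BPN/3J (9.21, 9.25 and 9.28). The adult strains did not overlap, while the young strains did.

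The strain comparison at 26 weeks asks how the hypothalamus of adult BPH/2J differs from that of adult BPN/3J. Blood pressure and every other difference between the strains cannot be told apart, at either age. Of the 10 members, 3 were higher in BPH/2J and 0 were lower. Ciart was higher by 0.58 ± 0.13 log2 units (SE; 1.495-fold; adjusted p = 0.00995, limma over 19937 genes with Benjamini-Hochberg adjustment). Dbp was higher by 0.41 ± 0.07 (1.33-fold; adjusted p = 0.000648) and Cry2 by 0.22 ± 0.06 (1.17-fold; adjusted p = 0.0381). These are also the 3 members whose strains did not overlap. Over all genes 2.67% were called, 1.32% were called higher in BPH/2J, and 1.75% did not overlap between the strains. The members' median difference was 0.144, against 0.011 over all genes, and 9 of 10 differences were positive.

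The other members did not pass at 26 weeks. Per1 differed by 0.27 ± 0.08 (adjusted p = 0.104), Per2 by 0.15 ± 0.09, Per3 by 0.14 ± 0.10, Nr1d2 by 0.11 ± 0.05, Nr1d1 by 0.11 ± 0.07, Tef by 0.02 ± 0.05 and Hlf by -0.04 ± 0.09. The 95% interval for Hlf, -0.23 to 0.14, and that for Tef, -0.07 to 0.12, leave out differences of the size seen for Dbp. Dbp and Ciart were called under every alternative run, with values of 0.37 to 0.45 for Dbp and 0.47 to 0.73 for Ciart, the other Ciart probe set among them at 0.56 (adjusted p = 0.00550). Adjusted p-values over the alternatives were 8.68e-05 to 0.0158 for Dbp and 0.00251 to 0.0391 for Ciart. Cry2 was called under 25 of 37 alternatives, with adjusted p-values of 0.0136 to 0.236. Its call was lost when BPH/2J mouse 1, 2, 5 or 6 or BPN/3J mouse 2, 3 or 4 was left out (adjusted p up to 0.107). It was also lost in a fit of the 26-week groups alone, whether without a block (0.22, adjusted p = 0.236) or with the replicate number as a block (0.22, adjusted p = 0.11). The same was so with array medians centred (adjusted p = 0.0513), with array weights (0.0637) and without 26-week arrays 5 and 6 (0.125).

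The 26-week arrays fell into 2 sets that no label names. On the first principal component of 5325 unnamed probe sets, which held 27% of their variance, replicates 5 and 6 lay at 18.5 and 20.5 in BPH/2J and 16.8 and 30.03 in BPN/3J, and replicates 1 to 4 lay below -6 in both strains. Each set holds both strains, so the strain differences were also taken within sets. Dbp differed by 0.45 among replicates 1 to 4 and by 0.34 among replicates 5 and 6, and Cry2 by 0.19 and 0.29, so both were positive in each set. Ciart differed by 0.73 and 0.28, Per1 by 0.32 and 0.15, Per2 by 0.24 and -0.03, and Per3 by 0.25 and -0.08. In BPN/3J, replicates 5 and 6 were above replicates 1 to 4 by 0.48 for Ciart, 0.39 for Per2 and 0.37 for Per3. With a term for the sets in the fit, the same 3 members were called at 26 weeks. Without 26-week arrays 5 and 6 only Dbp and Ciart were called, and Cry2 differed by 0.19 (adjusted p = 0.125 in limma).

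**Figure D2:**
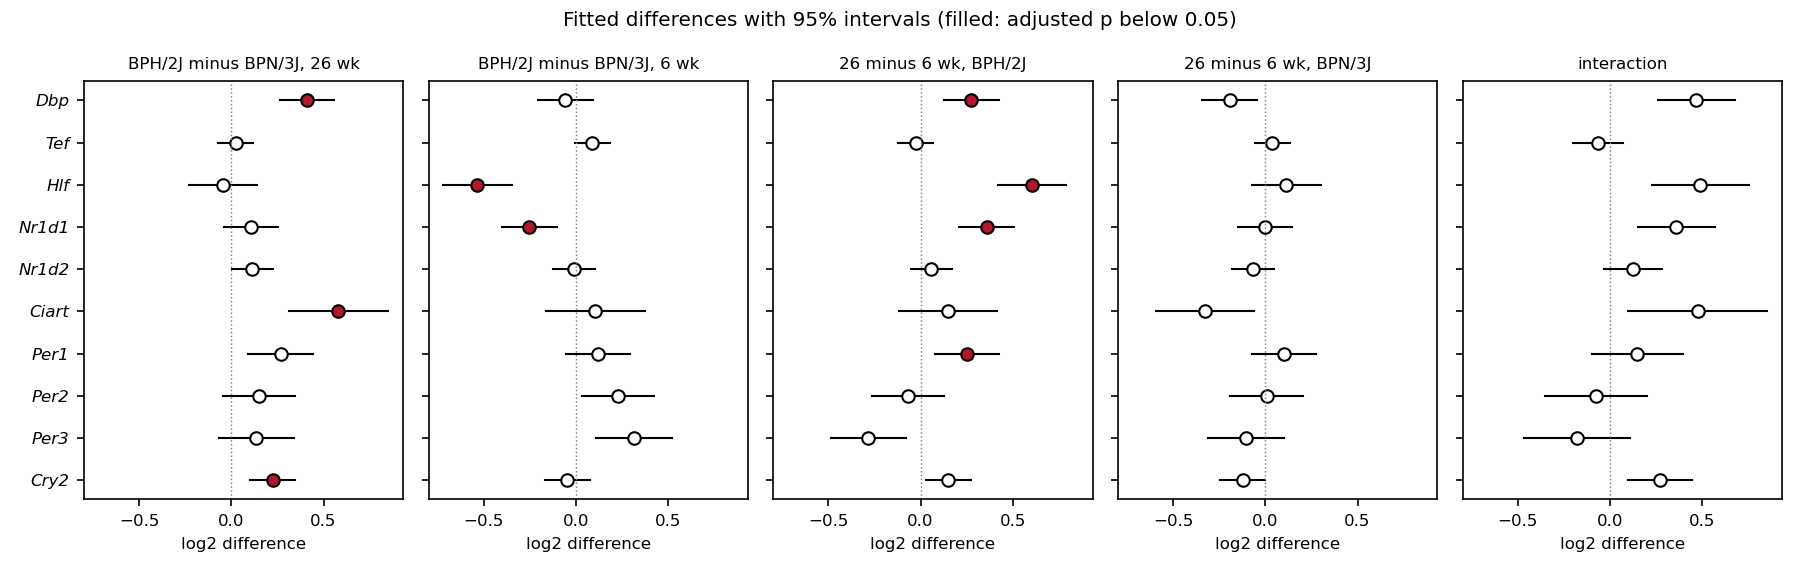
Fitted log2 differences of the 10 transcripts in 5 comparisons, with 95% intervals; filled points have an adjusted p below 0.05. Dbp, Ciart and Cry2 are filled for strain at 26 weeks, Hlf and Nr1d1 for strain at 6 weeks, and Dbp, Hlf, Nr1d1 and Per1 for age in BPH/2J, while the panels for age in BPN/3J and for the interaction hold no filled point.

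The strain comparison at 6 weeks asks what differs while the mice are young, and it picked out other members. Hlf was lower in BPH/2J by 0.53 ± 0.09 log2 units (difference -0.53, 0.69-fold, adjusted p = 0.000341). Nr1d1 was lower as well (difference -0.25 ± 0.07, 0.84-fold, adjusted p = 0.0294). Thus 2 of 10 members were called, both lower, where 7.42% of all genes were called and 4.42% were called lower in BPH/2J. The members' median difference was 0.04 and 5 of 10 differences were positive, against a median of 0.014 over all genes. Hlf and Per3 did not overlap between the strains, as was so for 5.44% of all genes.

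Per3 stood at the threshold at 6 weeks, with a difference of 0.32 ± 0.10 (adjusted p = 0.0512), and it passed under 11 of 37 alternatives, among them the fits without 26-week BPN/3J replicate 4 or 6 or without 6-week BPH/2J replicate 2 or 6. Per2 differed by 0.23 ± 0.09 (adjusted p = 0.181), Per1 by 0.12 ± 0.08, Ciart by 0.10 ± 0.13 and Tef by 0.09 ± 0.05, none of which passed. Dbp differed by -0.06 ± 0.07, Cry2 by -0.05 ± 0.06 and Nr1d2 by -0.01 ± 0.05. The 95% interval for Dbp at this age was -0.20 to 0.09. The call of Nr1d1 was lost when 6-week BPH/2J mouse 3, 4 or 5 or BPN/3J mouse 1, 3, 4 or 5 was left out, with adjusted p-values of 0.0511 to 0.0957.

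Markers of the thalamus, the region next to the hypothalamus, moved with the young BPH/2J group, and their part in the results for Hlf and Nr1d1 was not tested beyond a fit with their mean as a covariate. The mean of 16 thalamus markers was 9.34 ± 0.12 in 26-week BPH/2J (9.19 to 9.50), 9.33 ± 0.28 in 26-week BPN/3J (8.83 to 9.65), 8.38 ± 0.59 in 6-week BPH/2J (7.72 to 9.29) and 9.36 ± 0.12 in 6-week BPN/3J (9.28 to 9.59). At 6 weeks 15 of the 16 were lower in BPH/2J and 0 higher, and in BPH/2J 14 were higher at 26 than at 6 weeks and 0 lower. Hypothalamic markers ran the other way in young mice, with a list mean of 8.58 ± 0.31 in 6-week BPH/2J and 7.94 ± 0.24 in 6-week BPN/3J, and 7 of 15 higher in BPH/2J. The least bright of these 15, Six6, averaged 5.73 over all arrays, above the 5.25 that was the highest array median of unnamed probe sets. Oligodendrocyte markers also moved at 6 weeks, with a list mean of 9.70 ± 0.32 in BPH/2J (9.33 to 10.18) and 10.19 ± 0.22 in BPN/3J (9.79 to 10.41), and 4 of 9 were lower in BPH/2J and 0 higher. In BPN/3J 5 of these 9 were lower at 26 than at 6 weeks, while for strain at 26 weeks 0 of 9 were called, with 0 at an unadjusted p below 0.05 in limma. Their part in the member results was not tested.

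Hlf was the member that followed the thalamus markers most closely. Across the deviations of 24 arrays from their group means, Hlf and the thalamus mean had a Pearson r of 0.814 and a Spearman rho of 0.624, and within 6-week BPH/2J r was 0.919 (n = 6). The 6-week BPH/2J mouse with the highest thalamus mean, replicate 2 at 9.29, was also the mouse with the highest Hlf. Cry2 had an r of 0.541 with the thalamus mean and Per1 of 0.443, while Dbp had 0.036, Nr1d1 0.022 and Per2 0.020. These arrays share dissection and labelling, and the values are descriptions. With the thalamus mean as a covariate, Hlf at 6 weeks differed by -0.16 (adjusted p = 0.854) and Nr1d1 by -0.24 (adjusted p = 0.601), and neither was called. Over all alternatives the adjusted p-values were 3.14e-07 to 0.854 for Hlf and 0.00598 to 0.601 for Nr1d1. That fit called 160 genes for strain at 6 weeks in place of 1479, and it left the 26-week difference of Dbp at 0.41.

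**Figure D3:**
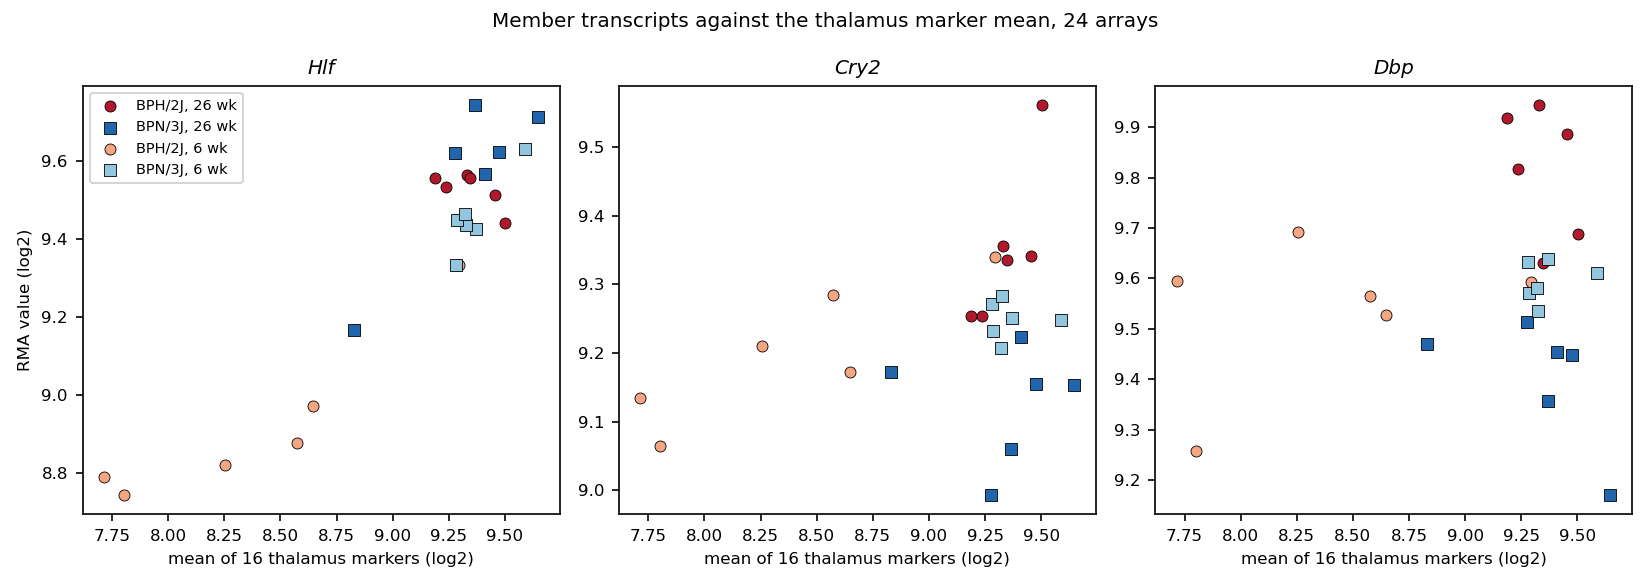
RMA values (log2) of Hlf, Cry2 and Dbp on 24 arrays against the mean of 16 thalamus markers on the same array (log2); points are mice, coloured by group. In 6-week BPH/2J the thalamus mean runs from 7.72 to 9.29, and Hlf is highest in the mouse at 9.29, while Dbp of 26-week BPH/2J and BPN/3J separates at like thalamus means.

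The age comparison in BPH/2J asks what changes in the hypertensive strain between 6 and 26 weeks. Of the 10 members, 4 rose with age and 0 fell, where 16.9% of all genes were called and 8.23% were called higher at 26 weeks. Hlf was higher at 26 weeks by 0.60 ± 0.09 (1.52-fold, adjusted p = 0.000186), Nr1d1 by 0.36 ± 0.07 (1.28-fold, adjusted p = 0.00166), Dbp by 0.28 ± 0.07 (1.21-fold, adjusted p = 0.0103) and Per1 by 0.25 ± 0.08 (1.19-fold, adjusted p = 0.0407). Among members only Hlf had no overlap between the ages, and 4.05% of all genes had none. The members' median difference was 0.149, against -0.031 over all genes.

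The remaining members did not pass in BPH/2J. Per3 differed by -0.28 ± 0.10 with an adjusted p that rounds to the threshold of 0.05 and lies just above it, and it passed under 13 of 37 alternatives, among them the fits without 26-week BPH/2J replicate 6, 26-week BPN/3J replicate 4 or 6, or 6-week BPH/2J replicate 2 or 6. Cry2 differed by 0.15 ± 0.06 (adjusted p = 0.0853) and passed without 6-week BPH/2J replicate 2. Ciart differed by 0.15 ± 0.13 (adjusted p = 0.455), but its other probe set was higher at 26 weeks by 0.47 (adjusted p = 0.00768). Tef differed by -0.03 ± 0.05, Nr1d2 by 0.06 ± 0.05 and Per2 by -0.07 ± 0.09. The call of Per1 was lost when 26-week BPH/2J mouse 1, 2, 3 or 5 or 6-week BPH/2J mouse 1, 4, 5 or 6 was left out. The thalamus markers rose over the same interval, and a fit with their mean as a covariate called none of the 4. That fit called 8 of all 19937 genes in this comparison, in place of 3362. Without the covariate the differences were 0.60 for Hlf, 0.36 for Nr1d1, 0.28 for Dbp and 0.25 for Per1. With it Hlf differed by 0.23 (adjusted p = 0.320 in limma) and Nr1d1 by 0.35 (adjusted p = 0.215). Dbp differed by 0.26 (adjusted p = 0.339) and Per1 by 0.07 (adjusted p = 0.848). These are the highest adjusted p-values over the alternatives, and the lowest were 1.41e-06 for Hlf, 0.00041 for Nr1d1, 0.000235 for Dbp and 0.00639 for Per1.

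In BPN/3J limma called 0 of 10 members between the ages, where 12.3% of all genes were called. Of all 19937 genes, 5834 had an unadjusted p below 0.05 in limma. Among the members there were 3, namely Dbp (-0.19 ± 0.07, adjusted p = 0.0748), Ciart (-0.33 ± 0.13, adjusted p = 0.0941) and Cry2 (-0.12 ± 0.06, adjusted p = 0.169). All 3 were the members that separated the strains at 26 weeks, and the comparisons share the 26-week BPN/3J arrays. Dbp had no overlap between the ages in BPN/3J, as had 4.57% of all genes. Ciart passed without 26-week BPN/3J replicate 5 (-0.41, adjusted p = 0.0275), and Per3, which differed by -0.10 ± 0.10, passed without replicate 6 of that group (-0.22, adjusted p = 0.0434). Over all alternatives their adjusted p-values were 0.0086 to 0.266 and 0.0324 to 0.767. Hlf differed by 0.11 ± 0.09, Per1 by 0.10 ± 0.08, Tef by 0.04 ± 0.05, Per2 by 0.01 ± 0.09, Nr1d1 by -0.00 ± 0.07 and Nr1d2 by -0.07 ± 0.05.

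Whether the strain difference itself changed with age was asked with an interaction term, the strain difference at 26 weeks minus that at 6 weeks. Limma called 0 of 10 members, where 0.0301% of all genes were called. An unadjusted p below 0.05 was found for 5 members, and for 2160 of all 19937 genes. Hlf had an interaction of 0.49 ± 0.13 (adjusted p = 0.0935), Ciart of 0.48 ± 0.18 (adjusted p = 0.298), Dbp of 0.47 ± 0.10 (adjusted p = 0.0686), Nr1d1 of 0.36 ± 0.10 (adjusted p = 0.123) and Cry2 of 0.27 ± 0.08 (adjusted p = 0.162). The members' median was 0.210, against 0.003 over all genes. Without 6-week BPH/2J replicate 2, the mouse with high Hlf and a high thalamus mean, both Hlf (0.57, adjusted p = 0.00444) and Dbp (0.48, adjusted p = 0.0113) passed, where the alternatives ranged over 0.00444 to 0.999 and 0.00735 to 0.999. Dbp also passed on all arrays with an array set term (adjusted p = 0.0211), after quantile normalization again (0.049), with a trended robust variance (0.0463) and with array weights (0.00735), and it passed without 26-week arrays 5 and 6 (0.0435). Hlf passed with the array set term (0.048) and array weights (0.0102), and Cry2 with array weights (0.0414). The interaction was thus called in 6 of 35 alternatives for Dbp, 3 for Hlf and 1 for Cry2, and for no member in the fit of group means on all arrays.

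None of the other clock genes listed was called for strain at 26 weeks. Limma called 0 of 5 activators, 0 of 4 other repressors, 0 of 11 kinases and turnover factors and 0 of 11 outputs. Of them 0, 1, 3 and 3 were at an unadjusted p below 0.05, as were 2488 of all 19937 genes. Arntl, which encodes BMAL1 and is repressed by the NR1D proteins, differed by -0.16 ± 0.11 at 26 weeks (adjusted p = 0.598) and by -0.18 ± 0.11 at 6 weeks (adjusted p = 0.429). Clock, its partner, differed by -0.08 ± 0.08 and -0.04 ± 0.08. Cry1, the other cryptochrome, differed by 0.16 ± 0.07 at 26 weeks and 0.19 ± 0.07 at 6 weeks (adjusted p = 0.260 and 0.0835). Nfil3, which encodes a bZIP repressor at D-box sites, differed by -0.13 ± 0.08 and -0.00 ± 0.08, and Bhlhe41, also called Dec2 and a repressor at E-boxes, by 0.19 ± 0.11 and -0.04 ± 0.11.

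At 6 weeks 4 of the other clock genes were called, where 7.42% of all genes were. Rora, a ROR receptor that opposes the NR1D proteins and is itself in the thalamus list, was lower in BPH/2J (difference -1.13 ± 0.17, adjusted p = 6.5e-05). Fbxl21, a subunit of a ubiquitin ligase for cryptochromes, was lower too (-0.45 ± 0.09), as was the output gene Ppard (-0.43 ± 0.10), while the output gene Lonrf3 was higher (0.27 ± 0.08). Thus 1 of 5 activators, 1 of 11 kinases and turnover factors and 2 of 11 outputs were called, and 0 of 4 other repressors. Of these repressors 2 had an unadjusted p below 0.05 in limma, as had 3617 of all 19937 genes.

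With age in BPH/2J, where 16.9% of all genes were called, the calls among these lists were as follows. Rora rose by 0.92 ± 0.17 and Rorb, another ROR gene, by 0.65 ± 0.16, which made 2 of 5 activators. Of the other repressors 2 of 4 rose, Bhlhe40 by 0.37 ± 0.09 and Bhlhe41 by 0.34 ± 0.11 (adjusted p = 0.0339). Among 11 kinases and turnover factors Usp2, a deubiquitinase with a strong rhythm, rose by 0.42 ± 0.11 and Gsk3b by 0.29 ± 0.08, while the casein kinase gene Csnk1d (-0.26 ± 0.05) and Fbxw11 (-0.25 ± 0.06) fell. Of 11 outputs 3 rose, with Ppard (0.31 ± 0.10) beside Usp2 and Bhlhe40, which are in both lists. In BPN/3J Fbxw11 fell (-0.21 ± 0.06) and Fmo2 rose (0.49 ± 0.12), and 0 of 5 activators and 0 of 4 other repressors were called. Of these 2 lists 2 and 0 genes were at an unadjusted p below 0.05 in limma, as were 5834 of all 19937 genes. Arntl differed between the ages by 0.27 ± 0.11 in BPH/2J and 0.25 ± 0.11 in BPN/3J, and did not pass in either.

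Per1 is also a direct target of the glucocorticoid receptor, so a list of such targets was read beside it. The list mean was 7.88 ± 0.06 in 26-week BPH/2J (7.80 to 7.94) and 7.57 ± 0.06 in 26-week BPN/3J (7.51 to 7.67), without overlap. At 6 weeks it was 7.75 ± 0.24 in BPH/2J and 7.55 ± 0.14 in BPN/3J, with overlap (7.37 to 8.04 against 7.36 to 7.71). At 26 weeks all 9 measured targets were higher in BPH/2J in sign, with a median of 0.312, and 2 were called: Fkbp5, which encodes a co-chaperone of the receptor (0.37 ± 0.09), and Plin4, which encodes a coat protein of lipid droplets (0.51 ± 0.12). Over 24 arrays Per1 deviated with this list mean at an r of 0.663 (rho 0.533), and the other members had values of -0.340 to 0.357.

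Markers of the suprachiasmatic nucleus gave no such separation. Their list mean was 6.83 ± 0.12 in 26-week BPH/2J, 6.82 ± 0.23 in 26-week BPN/3J, 6.84 ± 0.10 in 6-week BPH/2J and 6.83 ± 0.10 in 6-week BPN/3J. At 26 weeks limma called 0 of 13 of them, with 3 at an unadjusted p below 0.05, as were 2488 of all 19937 genes. At 6 weeks 1 was higher in BPH/2J, Syt10 (0.69 ± 0.19), and 3 were lower. The lower ones were Grp (-0.43 ± 0.13), Rgs16 (-0.74 ± 0.20) and Vipr2 (-0.80 ± 0.15). Rgs16 and Vipr2 are also in the thalamus list. The pacemaker is a small part of the tissue. Vip and Prok2, which its neurons express, averaged 4.99 and 4.86, within the array medians of unnamed probe sets (4.60 to 5.25). These were the lowest averages of the list, and the other markers averaged 5.60 (Nms) to 9.45 (Rgs16). Each probe set has its own brightness, so these averages do not measure the pacemaker's share. The member values come from whole hypothalamus, and the share from the suprachiasmatic nucleus was not measured. The immediate early genes, which respond to recent activity, had 1 of 13 called at 26 weeks, Btg2, lower in BPH/2J (-0.39 ± 0.08).

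Within groups, few pairs of members varied closely together. Among the 45 pairs of members, the median Pearson r of deviations from the group means over 24 arrays was 0.071, with 28 pairs above 0, and 2 pairs above 0.5. Pairs among 1994 genes spaced evenly through the table had a median of 0.016, and 7.21% of them were above 0.5. Per2 and Per3 had the highest value, 0.767 (rho 0.646, and 0.597 without the 2 arrays farthest from the median). Dbp and Nr1d1 followed with 0.537 (rho 0.523, and 0.379 without the 2 farthest), then Ciart and Cry2 with 0.488 (0.234 without them) and Per1 and Per2 with 0.426 (0.325 without them). The lowest value was -0.593, for Dbp and Per2 (rho -0.535, and -0.334 without the 2 farthest). Nr1d1 and Per2 had -0.563 (rho -0.678, and -0.642 without them), and Dbp and Per3 had -0.543 (rho -0.364, and -0.115 without them). The arrays of a group share handling, and no test was made on these values. Each adult group holds arrays of both array sets. Without 26-week arrays 5 and 6, r was 0.603 for Per2 and Per3, 0.561 for Dbp and Nr1d1 and 0.559 for Ciart and Cry2. It was 0.382 for Per1 and Per2, -0.415 for Dbp and Per2, -0.572 for Nr1d1 and Per2 and -0.334 for Dbp and Per3. Deviations were still taken from the means of the whole groups, and the part of the sets was not tested further.

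**Figure D4:**
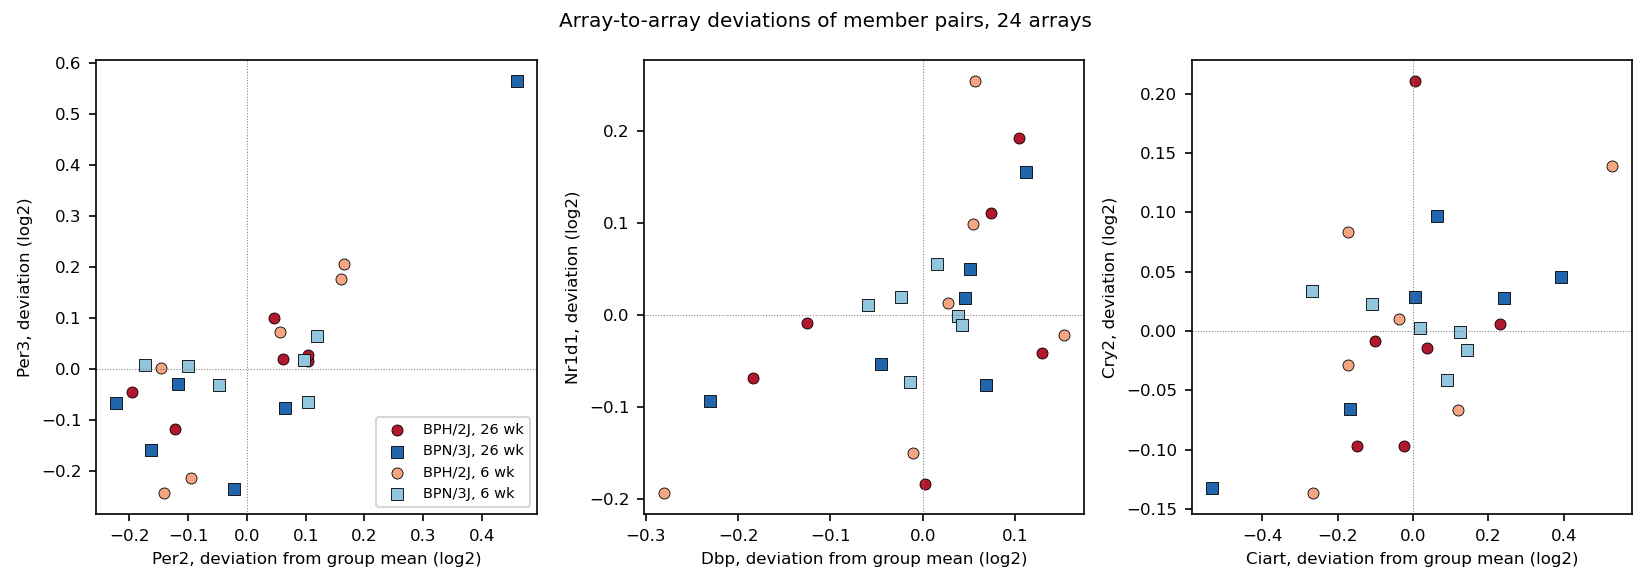
Deviations from the group mean (log2) on 24 arrays for the 3 member pairs with the highest correlation; points are mice, coloured by group. Per2 and Per3 lie along a diagonal (r = 0.767), with 26-week BPN/3J replicate 6 at the far end, while Dbp with Nr1d1 (0.537) and Ciart with Cry2 (0.488) scatter more widely.

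Each member was scaled to its spread within groups, and the mean of the 10 deviations on an array was set beside every other gene over the 24 arrays. The genes most like it were Scml2 (r = 0.763), Hecw2 (0.751), Inpp5a (0.723), Clvs1 (0.722), Ttc7b (0.721) and Lrch1 (0.712). The genes with the most negative values were Gm5409 (-0.846), Pcbp1 (-0.741), Parp14 (-0.722) and Cd74 (-0.720). None of these is a gene of the clock lists. Of the clock lists, Rora, which is also in the thalamus list, ranked 80 of 19927 genes with r = 0.611 and Usp2 ranked 170 with 0.566. These were the 2 highest, and the others were spread from Arntl2 at rank 672 (0.433) to Nampt at rank 16919 (-0.295). Arntl ranked 5027 (0.125) and Clock 9321 (-0.032).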

How the data were processed

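Per the labels, 100 ng of total RNA from each hypothalamus was hybridised to its own Affymetrix Mouse Gene 1.0 ST array. The deposited values are log2 values per probe set, made by the authors. The submitters' processing notes name RMA and limma. The sources used here give no tool version, array annotation or genome build. RMA takes out any shift that an array's genes have in common. Array medians were 5.89 to 6.09, no array was left out, and the number of arrays limits the precision. Gene symbols came from the platform annotation (21640 with 1 symbol, 1321 with several, 11799 unnamed).

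The sample titles gave the groups and replicate numbers. Limma 3.58.1 in R 4.3.3 fitted a mean per group on all 24 arrays (20 residual degrees of freedom), and p-values were adjusted with Benjamini-Hochberg over 19937 genes within each of 5 comparisons, with a threshold of 0.05. The code was tested on simulated data. The members, gene lists and tests were chosen with earlier results of these data known, so the lists are described by counts and medians without a test. By the rule for named genes, all 10 members were described, with up to 3 called genes of each other clock list per comparison, 5 fixed clock genes, and the 6 genes most and 4 least like the members. Arrays of a group differed by a mean of at least 0.122, so none was a duplicate. Deviations of same-numbered arrays correlated at 0.130 to 0.444 for strain at 26 weeks, all 6 pairs above 0.1. In the other comparisons they were not all above 0.1. At 26 weeks the same-numbered array was the best match in only 3 of the 6 pairs. The array sets follow the replicate numbers in both strains at that age, so these correlations cannot tell pairing from the sets. The main fit used no pairing, and the replicate number was a block in alternatives only. Alternatives changed the samples in the fit, the replicate block, normalization, probe sets, filter, variance model, array weights, a thalamus covariate and each array left out in turn. A term for the array sets, their removal, the other Ciart probe set and a block within the groups compared were added after seeing the data.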

Additional observations from a re-analysis of the deposited data

Results flagged for a closer look

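In 4 of 40 combinations of member and group, 1 mouse stood apart from the other 5 by Dixon's criterion, which chance meets in about 1 in 20 groups. Hlf was low in 26-week BPN/3J replicate 5, at 9.17, with the nearest mouse at 9.57. The thalamus marker mean was also lowest in its group in that mouse, at 8.83. Per3 was high in 26-week BPN/3J replicate 6, at 7.54, with the nearest at 6.95, and Per2 was highest in the same mouse, at 7.16. Cry2 was high in 26-week BPH/2J replicate 5, at 9.56, with the nearest at 9.36. Nr1d2 was low in 6-week BPH/2J replicate 3, at 9.91, with the nearest at 9.998. The first 3 belong to the array set of replicates 5 and 6, and the part of that set in these values was not tested. On all arrays with no added term, no member passed the test of a strain difference that changes with age; Dbp passed it in 6 and Hlf in 3 of 35 alternatives.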

How the results depend on the processing

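The single values of the 10 members under all alternatives were sorted by sign and call, and their size was not compared. Of these values 1721 kept their sign and their side of the threshold, and 28 changed sign without being called. A further 39 lost a call, 47 gained one and 0 called values changed sign. For strain at 26 weeks 3 members were called, and the count stayed within 1.5 times this under every alternative that gave one. For strain at 6 weeks 2 were called, 4 with array weights, 4 without 26-week arrays 5 and 6, 0 with the thalamus covariate, and 1 to 3 leaving out each array in turn. For age in BPH/2J 4 were called and 0 with the thalamus covariate. Per3 and Cry2 were called as well with array weights, with the array set term and without 6-week BPH/2J replicate 2. In this comparison Per1 lost its call in 14 of 37 alternatives, and Per3 gained one in 13. For age in BPN/3J 0 were called, 2 with array weights, 1 with the array set term, 2 without 26-week arrays 5 and 6, and 0 to 1 leaving out each array. For the interaction 0 were called, 1 after quantile normalization again, 1 with a trended robust variance, 3 with array weights, 2 with the array set term, 1 without 26-week arrays 5 and 6, and 0 to 2 leaving out each array. The causes were not tested. With the replicate number as a block on all arrays (replicate block) the counts were 3 and 2 for strain at 26 and 6 weeks, 4 for age in BPH/2J, 0 for age in BPN/3J and 0 for the interaction. In a block within the groups compared, Dbp and Ciart passed at 26 weeks, Hlf and Per3 at 6 weeks, and Dbp, Hlf, Nr1d1 and Per3 for age in BPH/2J. Over all genes the calls ranged from 248 (only the groups compared in the fit) to 881 (array set term) for strain at 26 weeks, with 532 on all arrays; from 160 (thalamus covariate) to 3725 (array weights) at 6 weeks, with 1479; from 8 (thalamus covariate) to 7843 (without arrays 5 and 6) for age in BPH/2J, with 3362; from 1034 (without 26-week BPN/3J replicate 4) to 6702 (without arrays 5 and 6) for age in BPN/3J, with 2445; and from 0 to 683 (array weights) for the interaction, with 6. The thalamus mean and the group are nearly the same split at 6 weeks, which limits that covariate. Signal over background was not available per probe set.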
